A study of Drosophila melanogaster with 12 samples.

Results

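Rt1a, Rt1b, and Rt1c are 3 non-LTR retrotransposons of *Drosophila melanogaster*, and the small RNAs that match them were measured in 12 libraries of Piwi-clade protein immunoprecipitates from ovaries. The members were the rows named Rt1a (FBgn0041728), Rt1b (FBgn0042682), and Rt1c (FBgn0063467), 3 of the 126 transposons counted, and all 3 passed the filter of a mean of at least 100 counts per library that 123 transposons passed. The authors class Rt1b as germline dominant and give Rt1a and Rt1c no class. All flies were aged 2 to 5 d. The aubRK ovaries carried the aub alleles QC42 and HN2 in trans, and so lacked endogenous Aub, and expressed from nos-Gal4 a UAS transgene for triple-HA-tagged Aub with lysines in place of its N-terminal arginines. The aubWT ovaries had the same alleles and driver and expressed the transgene with the arginines intact. Endogenous wild-type Aub was present in the y w ovaries. The csulRM50 ovaries had lost csul, which codes for the arginine methyltransferase PRMT5, and w1118 ovaries were their control. Ago3 was purified from all 5 genotypes, Aub from all but y w, and Piwi from aubRK and aubWT, with 1 library each except for Piwi aubRK, which had 2. Each library was made from pooled ovaries, and the csulRM50 and w1118 libraries were made with other antibodies and another protocol than the rest. The nos driver is a germline driver, so the follicle cells around the germline were not expected to express the transgene. The counts cover transposons, so the ovary label was not checked against marker genes here. The values are shares of the transposon reads of a library, so they measure neither the number of germ cells nor small RNA per cell. In such pooled material these cannot be told apart.

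Rt1 elements belong to the R1 group of non-LTR retrotransposons, which copy themselves through an RNA intermediate and have no long terminal repeats. In the fly ovary they are held down by piRNAs, small RNAs bound to Argonaute proteins of the Piwi clade. Aub and Ago3 work in the germline cytoplasm, where Aub, guided mostly by antisense piRNAs, cuts transposon transcripts, and the cut ends become sense piRNAs in Ago3, which in turn cuts antisense precursors. This cycle is called ping-pong, and Piwi acts in the nucleus of germ cells and follicle cells. Methylated arginines at the N terminus of Aub are bound by Tudor domain proteins, and the aubRK transgene and the csulRM50 mutation were used to ask what happens to piRNAs when those arginines are absent or lack the enzyme that methylates them.

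In the annotation of the BDGP6 assembly, Rt1a had 30 insertions, Rt1b 60, and Rt1c 33. Most were short. Only 9 insertions of Rt1a, 9 of Rt1b, and 1 of Rt1c spanned at least 5000 bases. The median lengths were 1974, 1552, and 1044 bases. The longest Rt1b span, 66001 bases on 2R, encloses other annotated Rt1b insertions, so its length is not that of 1 copy. One of the longest Rt1a insertions lies on chromosome 3L at 1424822 to 1430014, plus strand, within the gene Ptp61F, and overlaps an exon of it. A full-size Rt1b insertion lies on chromosome 3L at 13574910 to 13580104, plus strand, within bru3 and outside its exons. The longest Rt1c insertion lies on chromosome 2L at 22218310 to 22224478, plus strand, and in no annotated gene. In all, 15 of the Rt1a, 25 of the Rt1b, and 12 of the Rt1c insertions lay in genes, and 6, 0, and 2 of them overlapped an exon. Chromosome arm 2R held 16 of the 30 Rt1a and 27 of the 60 Rt1b insertions, while 16 of the 33 Rt1c insertions were on X. Of those on X, 8 formed 2 groups of plus-strand copies of near-equal length. The first group ran from position 19911386 to 19941435 with 4 copies of 1175 bases, and the second from 20179750 to 20227857 with 4 copies of 1693 to 1726 bases. The reads were counted on consensus sequences, so that no value below belongs to a single insertion.

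Read copies on transposons numbered 1338017 to 47217032 per library, and abundances are given as CPM, the read copies of an element for each 1000000 of that total, with sense and antisense reads summed unless stated. At this depth the smallest share that 3 counts can show was at most 0.000224% of a library. Rt1a had 20355 to 960873 read copies per library, Rt1b 27938 to 1794881, and Rt1c 1256 to 45847. The 95% Wilson intervals of the sense shares reached at most 0.648 points to either side for Rt1a, 0.544 for Rt1b, and 2.71 for Rt1c. These intervals cover counting error only, since reads without molecular identifiers are not independent molecules. Only Piwi aubRK has a spread between libraries, and between those 2 libraries the log2 abundance differed by 0.04 for Rt1a, 0.15 for Rt1b, and 0.21 for Rt1c. The Ago3 aubWT, Piwi aubWT, and second Piwi aubRK libraries had random barcodes in their adaptors, and the other 9 did not. By these barcodes PCR duplicates were removed before counting. A second count, entries, counts identical reads once in the 9 libraries without barcodes and equals read copies in the barcoded ones.

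The members together took 3.52 to 4.51% of the read copies in the 4 aubRK libraries, against 6.63 to 7.90% in the 4 libraries of aubWT and y w. In csulRM50 they took 6.89% of Ago3 and 5.16% of Aub read copies, against 9.14% of Ago3 and 7.21% of Aub read copies in w1118. Rt1a and Rt1b made up nearly all of this. For Rt1a, the 4 aubRK libraries ranged from 15213 to 18844 CPM with a median of 16364, against 25579 to 29424 CPM with a median of 26736 in the 4 libraries of aubWT and y w. For Rt1b, the aubRK libraries ranged from 18775 to 25683 CPM with a median of 21519, against 38937 to 50629 CPM with a median of 44693 in those of aubWT and y w. Every aubRK library lay below every aubWT and y w library for both. For Rt1c, the aubRK libraries had 558 to 939 CPM, against 348 to 1293 CPM in aubWT and y w, and the ranges overlapped. Rt1a and Rt1b were among 11 of 123 transposons (8.94%) whose aubRK libraries all lay below those of aubWT and y w. They were also among the 10 of 123 (8.13%) for which this held with the w1118 libraries added, although those were made by the other protocol. With entries, Rt1a and Rt1b were both among 6 of 123 transposons that were lower in aubRK than in aubWT and y w without overlap. With the w1118 libraries added, Rt1b alone of the members was among 5 of 123. Rt1a was at 19886 entries per 1000000 in Aub aubRK, against 19154 in Aub w1118. Libraries of different proteins are not replicates of a genotype, and these sets were formed after the values had been seen, so the difference was not tested over them.

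**Figure D1:**
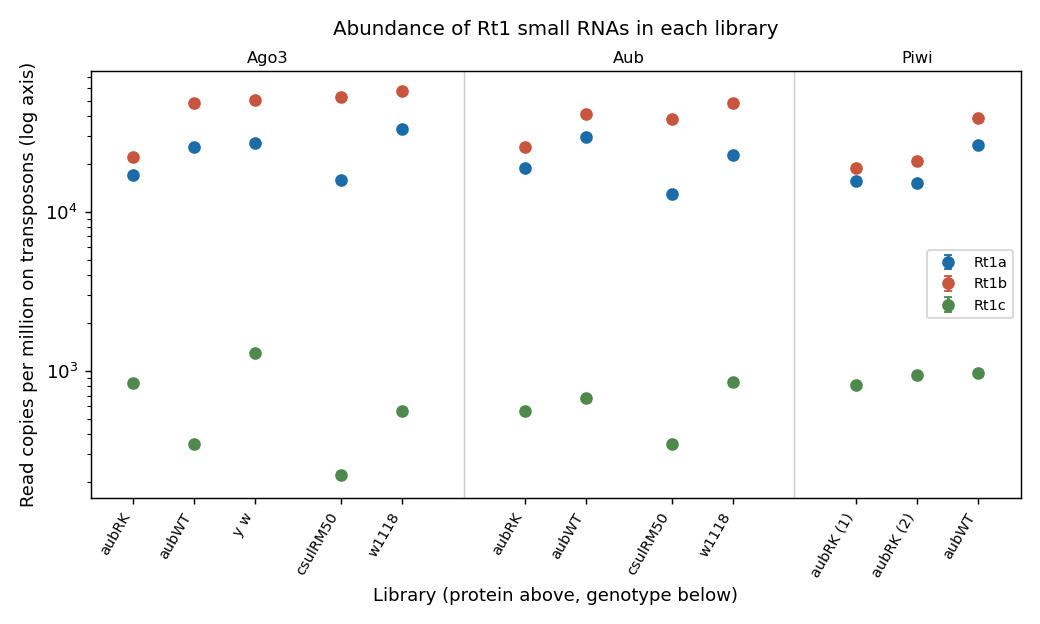
Abundance of Rt1a, Rt1b, and Rt1c in each of the 12 libraries, in CPM (log axis), by protein and genotype; bars are 95% exact Poisson intervals and are mostly smaller than the points. Rt1a and Rt1b lie between 15213 and 25683 CPM in the 4 aubRK libraries and between 25579 and 50629 CPM in those of aubWT and y w, while Rt1c shows no such order.

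Among the 12 libraries, Rt1a was highest in Ago3 w1118 at 33207 CPM and lowest in Aub csulRM50 at 12998.5 CPM, and only the neighbours Ago3 csulRM50 and the first Piwi aubRK library differed by less than the gap of the Piwi pair. Rt1b was highest in Ago3 w1118 at 57614 CPM and lowest in the first Piwi aubRK library at 18775 CPM. Of its 11 neighbouring pairs, 7 differed by less than the gap of the Piwi pair, among them each neighbouring pair of the 5 highest libraries (Ago3 of w1118, csulRM50, and y w, Aub of w1118, and Ago3 of aubWT). The gap below its 8 highest libraries, between Aub csulRM50 at 38251 CPM and Aub aubRK at 25683 CPM, was the largest between neighbours, at 0.57 on the log2 scale. All 4 libraries below that gap were from aubRK. Rt1c was highest in Ago3 y w at 1293 CPM and lowest in Ago3 csulRM50 at 222 CPM, and 6 of its 11 neighbouring pairs differed by less than the gap of the Piwi pair.

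The ratio of Rt1b to Rt1a within a library varied less than either abundance among the libraries of the first protocol, where it was 1.20 to 1.37 in the 4 aubRK libraries and 1.39 to 1.89 in those of aubWT and y w. In csulRM50 it was 3.36 for Ago3 and 2.94 for Aub, against 1.74 for Ago3 and 2.13 for Aub in w1118. Both csulRM50 ratios exceeded those of all other libraries. The consensus lengths were not used here, so that these ratios are compared between libraries only and do not rank the elements. Reads that fit Rt1a and Rt1b equally well could be counted on both.

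The first comparison asked how piRNAs bound to Ago3 differ when Aub has no N-terminal arginines to be methylated. Ago3 in aubRK held less Rt1b and less Rt1a than in either wild-type Ago3 library, and most of the difference was in sense piRNAs. For Rt1b, Ago3 aubRK had 22157 CPM, against 48425.5 CPM in aubWT and 50629 CPM in y w. The value in aubRK was 2.19-fold lower than in aubWT and 2.28-fold lower than in y w (log2 fold changes of −1.13 and −1.19). For Rt1a, Ago3 aubRK had 17132 CPM, against 25579 CPM in aubWT and 27104 CPM in y w, 1.49-fold and 1.58-fold lower (log2 fold changes of −0.58 and −0.66). The median log2 fold change over all 123 transposons was 0.78 against aubWT and −0.16 against y w, so that both members lay below the median in each comparison. Against aubWT, Rt1b had the second lowest log2 fold change of the 123 transposons and Rt1a the 14th lowest. Against y w they were the 16th and the 35th lowest.

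Separating the orientations, Ago3 aubRK had 7794 CPM of sense Rt1b piRNAs, against 27965 CPM in aubWT and 29592 CPM in y w. Antisense Rt1b piRNAs were at 14363 CPM in aubRK, against 20461 CPM in aubWT and 21036.5 CPM in y w. The log2 fold changes were thus −1.84 and −1.92 for sense and −0.51 and −0.55 for antisense Rt1b. Sense Rt1a piRNAs were at 6365 CPM in aubRK, against 16178 CPM in aubWT and 16164 CPM in y w, log2 fold changes of −1.35 and −1.34. Antisense Rt1a piRNAs were at 10767.5 CPM in aubRK and lay between the 9401 CPM of aubWT and the 10940.1 CPM of y w. Ago3 in aubRK therefore had lower sense Rt1a and Rt1b piRNAs than all 3 wild-type Ago3 libraries, w1118 included, as did 37 of 123 transposons (30.1%). For antisense piRNAs this held for Rt1b and for 11 of 123 transposons (8.94%), and not for Rt1a.

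**Figure D2:**
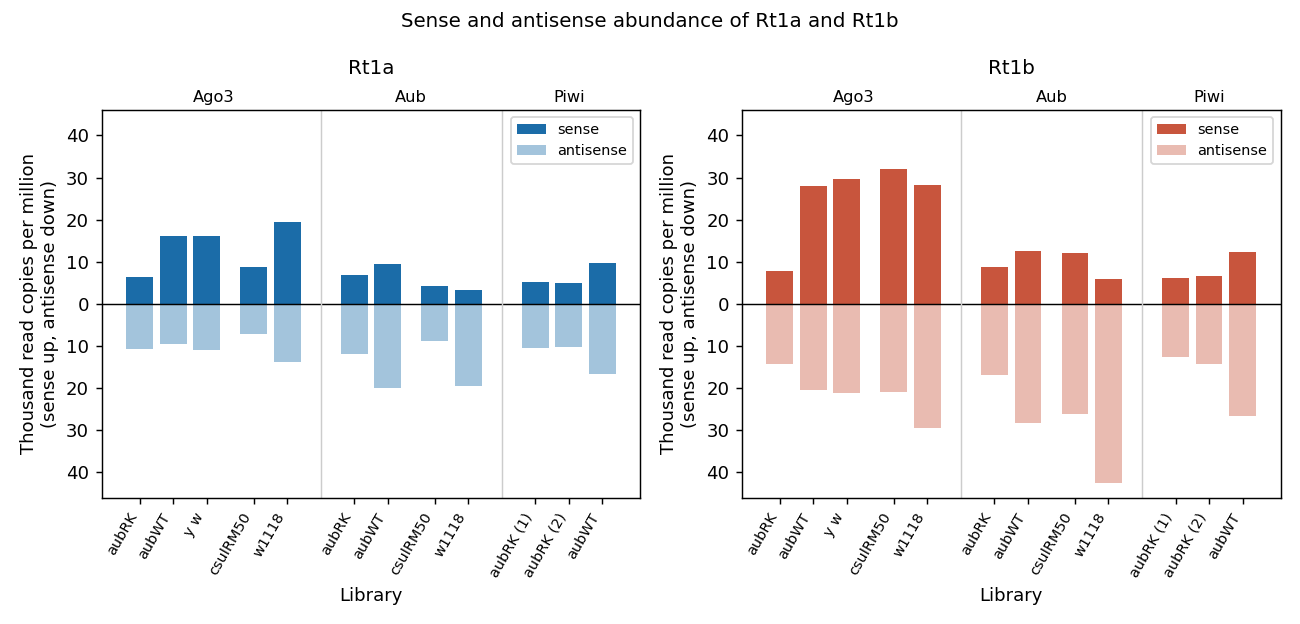
Sense (upward bars) and antisense (downward bars) abundance of Rt1a and Rt1b in each library, on a linear CPM axis that starts at 0 in both directions. In Ago3 aubRK the sense bars are 6365 CPM for Rt1a and 7794 CPM for Rt1b, shorter than the antisense bars, and in the other Ago3 libraries they are longer than the antisense bars except for Rt1b in w1118.

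Sense reads made up 37.2% of Rt1a read copies in Ago3 aubRK, against 63.2% in aubWT and 59.6% in y w. For Rt1b the sense share was 35.2% in Ago3 aubRK, against 57.7% in aubWT and 58.4% in y w. The differences against aubWT and y w were −26.1 and −22.5 points for Rt1a and −22.6 and −23.3 points for Rt1b, so that both shares were lower in aubRK by far more than the counting error. With entries the differences against y w were −11.3 points for Rt1a and −12.1 points for Rt1b. Those against aubWT were −24.0 and −21.3 points, but entries equal read copies in the barcoded aubWT library. Only the comparison with y w therefore counts both libraries in the same way. For Rt1c the share was 47.6% in aubRK, against 45.0% in aubWT and 47.6% in y w, differences of 2.64 points (0.70 to 4.58) and −0.03 points (−0.96 to 0.90). Lower sense shares in aubRK were common among transposons: the median difference over the 123 was −14.4 points against aubWT and −12.2 points against y w, and 58.5% and 55.3% of them were lower by over 10 points. Rt1a and Rt1b were 2 of those in each comparison, and Rt1c was in neither. Among 35 other non-LTR elements, 31 were lower by over 10 points against aubWT and 30 against y w, with medians of −24.7 and −19.3 points, close to the values of Rt1a and Rt1b. Relative to the median transposon of the library, the shares of Rt1a and Rt1b were at −1.33 and −3.30 points in Ago3 aubRK, whereas they were 7.50 to 13.0 points above it in Ago3 of aubWT and y w.

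**Figure D3:**
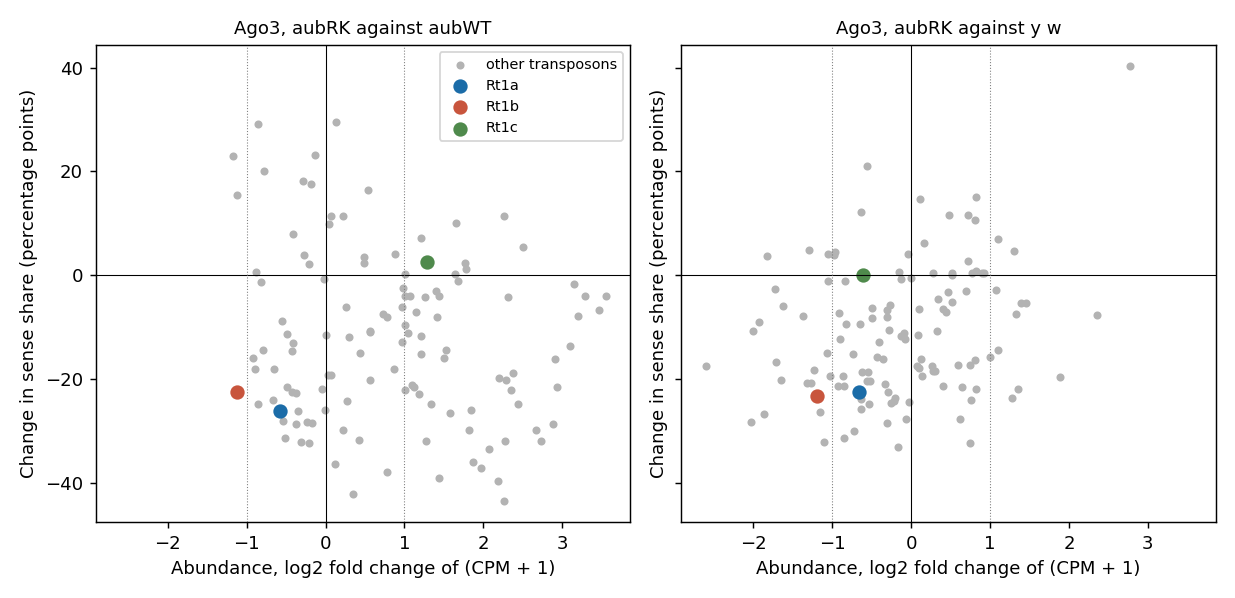
Change in sense share (percentage points) against change in abundance (log2 fold change of CPM + 1) for each of 123 transposons in Ago3 libraries, aubRK against aubWT (left) and aubRK against y w (right); dotted lines mark 2-fold. Rt1b lies at −1.13 and −22.6 points on the left and at −1.19 and −23.3 points on the right, Rt1a lies beside it at a smaller fall in abundance, and Rt1c is near 0 points in both.

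Of the 3 members, 2 passed 2-fold in Ago3 aubRK against aubWT, Rt1b as lower and Rt1c as higher, against 48% of the 123 transposons (45.5% higher and 2.44% lower). Against y w only Rt1b passed 2-fold, as lower, against 28.5% of transposons (17.9% lower). Rt1c had 846 CPM in Ago3 aubRK, against 348 CPM in aubWT and 1293 CPM in y w, log2 fold changes of 1.28 and −0.61, so that its direction depended on the wild-type library. The aubWT library had the barcoded adaptor and aubRK and y w had not, so that genotype and adaptor cannot be told apart in the comparison with aubWT. Antisense Rt1a has the same dependence, with log2 fold changes of 0.20 against aubWT and −0.02 against y w. Against aubWT, Rt1c no longer passed 2-fold with TMM (0.87) or DESeq2 size factors (0.50), and Rt1a passed it with DESeq2 size factors (−1.36). Rt1b did not pass it with entries (−0.95), which equal read copies in the barcoded aubWT library and not in aubRK. Against y w, Rt1b no longer passed with TMM (−0.91), DESeq2 size factors (−0.90), or entries (−0.77).

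The second comparison concerned Aub itself. Rt1a had 18844 CPM in Aub aubRK, against 29424 CPM in aubWT, and Rt1b had 25683 CPM in aubRK, against 40961 CPM in aubWT. Both were about 1.6-fold lower, with log2 fold changes of −0.64 for Rt1a and −0.67 for Rt1b against a median of 0.18 over all transposons. Rt1c had 558 CPM in aubRK and 681 CPM in aubWT, a log2 fold change of −0.29. None of the 3 members passed 2-fold, which 17.9% of transposons did. Unlike in Ago3, the sense shares were slightly higher in aubRK, at 36.4% in aubRK against 32.3% in aubWT for Rt1a, 34.0% in aubRK against 30.8% in aubWT for Rt1b, and 62.2% in aubRK against 56.4% in aubWT for Rt1c. None of these differences of 4.15, 3.25, and 5.78 points passed 10 points, which 26.8% of transposons did. Sense Rt1a was at 6860 CPM and antisense Rt1a at 11983 CPM in aubRK, against 9490 CPM sense and 19934 CPM antisense in aubWT. Sense Rt1b was at 8739 CPM and antisense Rt1b at 16944 CPM in aubRK, against 12607 CPM sense and 28354 CPM antisense in aubWT. Both orientations were thus lower in Aub, with log2 fold changes of −0.47 and −0.53 for sense and −0.73 and −0.74 for antisense reads of Rt1a and Rt1b.

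Piwi, with 2 aubRK libraries, gave the only comparison between genotypes with a test. Rt1a had 15595 and 15213 CPM in the Piwi aubRK libraries, against 26368 CPM in aubWT. Rt1b had 18775 and 20880.2 CPM in aubRK, against 38937 CPM in aubWT. Both aubRK libraries were lower for both elements, and the gap to aubWT was several times the gap within the aubRK pair. Rt1b fell by 0.98 ± 0.11 and Rt1a fell by 0.78 ± 0.03 on the log2 scale (SD of the aubRK pair, n = 2 against 1), with adjusted p-values of 6.70e-08 for Rt1b and 1.93e-05 for Rt1a by edgeR's quasi-likelihood test with Benjamini-Hochberg adjustment over 123 transposons. For Rt1c, with 813 and 939 CPM in aubRK and 968 CPM in aubWT, the log2 fold change was −0.15 ± 0.15 (SD, n = 2 against 1) and the adjusted p by edgeR was 0.753. The test called 38 of the 123 transposons (30.9%), 16 higher and 22 lower. None of the members passed 2-fold on the mean of the libraries, against 11.4% of all transposons. The spread of aubWT was not measured, so that these p-values assume that its lone library varies like the aubRK pair, whose libraries differ in adaptor. The first aubRK library had 5.57 read copies per entry, and the barcoded second aubRK and aubWT libraries had 1. PCR duplicates were thus removed in the barcoded libraries only, while entries count identical reads once in the first aubRK library only. The test with read copies and that with entries therefore both mix unlike counts. Neither can decide whether the calls hold. With entries, edgeR called 0 transposons (4 at an unadjusted p under 0.05, 0 of them Rt1), and the adjusted p of Rt1a and Rt1b was 0.998.

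In Piwi the decrease of Rt1b was of like size in both orientations. Sense shares were 32.4 and 31.5% for Rt1b in the Piwi aubRK libraries, against 31.8% in aubWT, a difference of 0.12 ± 0.66 points (SD, n = 2 against 1) that was smaller than the spread of the pair. For Rt1a they were 33.5 and 33.4% in aubRK, against 37.3% in aubWT, a difference of −3.82 ± 0.03 points. For Rt1c they were 52.1 and 59.2% in aubRK, against 49.0% in aubWT, a difference of 6.62 ± 4.98 points, to which the 2 libraries contributed unequally. None of the members passed 10 points on the mean, against 19.8% of transposons. The fold changes of Rt1b were −0.97 for sense and −0.98 for antisense on the log2 scale, and those of Rt1a −0.93 for sense and −0.69 for antisense.

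The sense share separated Rt1c from the other members. In Aub and Piwi libraries, Rt1c was 10.1 to 25.7 points above the median transposon of the library, while Rt1a was between −4.06 and 4.84 points from it and Rt1b between −6.42 and 4.79 points. In Ago3 of csulRM50 and of the 3 wild-type genotypes the order was reversed, and Rt1c lay at −5.28 to −1.70 points from the library's median, while in Ago3 aubRK it lay at 9.13 points. Over all 12 libraries the sense share of Rt1c ranged from 28.8 to 62.2%, that of Rt1a from 15.0 to 63.2%, and that of Rt1b from 12.3 to 60.6%. Rt1a and Rt1b differed from each other by a mean of 3.22 points per library, and no other of 115 transposons was closer to either. They differed from Rt1c by 16.6 and 17.1 points on average.

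**Figure D4:**
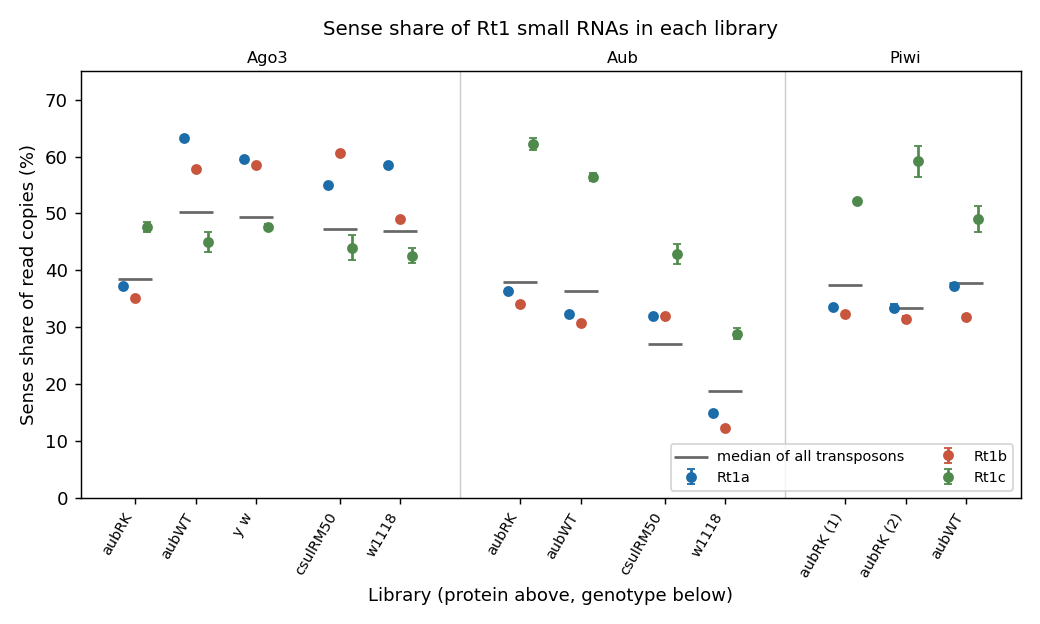
Sense share of the read copies of Rt1a, Rt1b, and Rt1c in each library (%), with 95% Wilson intervals for counting error; grey dashes mark the median over the transposons with at least 50 read copies. Rt1a and Rt1b move together and are at 49.0% or more in every Ago3 library but aubRK, where they are at 37.2 and 35.2%, while Rt1c lies above both in every Aub and Piwi library.

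The gap in sense share between Ago3 and Aub of the same genotype was then compared, because sense piRNAs gather in Ago3 where ping-pong takes place. Rt1a was 0.745 points more sense in Ago3 than in Aub in aubRK, against 31.0 points in aubWT, and 23.1 points in csulRM50, against 43.5 points in w1118. For Rt1b the gaps were 1.15 points in aubRK, against 27.0 points in aubWT, and 28.7 points in csulRM50, against 36.7 points in w1118. Both were higher in Ago3 in 4 of 4 genotypes, with means of 24.6 ± 18.0 points for Rt1a and 23.4 ± 15.4 points for Rt1b (SD, n = 4). Without aubRK, where the gap was nearly absent, the means were 32.5 and 30.8 points. An exact two-sided permutation test by sign flips over the 4 genotypes gave p = 0.125 for each, 0.1875 after Benjamini-Hochberg adjustment over the 3 members, and 0.125 is the smallest p that 4 genotypes allow. With entries the means were 13.3 points for Rt1a and 12.9 points for Rt1b. In aubRK Rt1a was then 39.2% sense in Ago3 and 39.4% in Aub. It was thus higher in Ago3 in 3 of 4 genotypes. For aubWT these means set Ago3 read copies against Aub entries, since that Ago3 library was barcoded. The shares there were 63.2% in Ago3 and 36.9% in Aub for Rt1a, and 57.7 and 34.6% for Rt1b. For Rt1c the gap was −14.6 points in aubRK, against −11.4 points in aubWT, and 1.15 points in csulRM50, against 13.7 points in w1118. Its mean was −2.79 ± 12.9 points (SD, n = 4; exact permutation p = 0.875), and it was higher in Ago3 in 2 of 4 genotypes. The 2 negative values are those of the first protocol, and genotype set and protocol cannot be told apart. The median of the mean gap over 116 transposons was 9.42 points, and Rt1a, Rt1b, and Rt1c ranked 8th, 11th, and 106th from the highest.

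**Figure D5:**
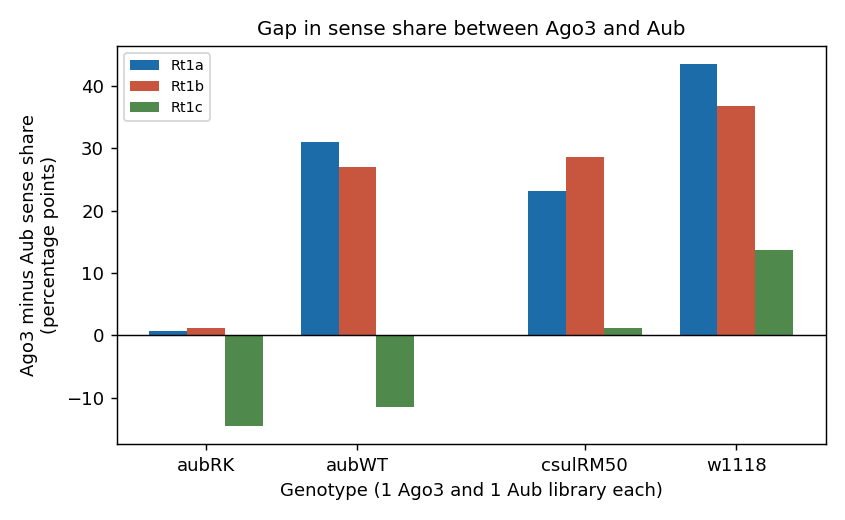
Sense share in Ago3 minus sense share in Aub (percentage points) for Rt1a, Rt1b, and Rt1c in the 4 genotypes with both libraries, 1 library of each protein per genotype. The bars of Rt1a and Rt1b are 0.745 and 1.15 points in aubRK and 23.1 to 43.5 points in the other genotypes, and those of Rt1c are below 0 in aubRK and aubWT.

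Loss of csul was compared with w1118 for Aub and Ago3, to see the piRNAs of flies without PRMT5 activity. In Aub, antisense Rt1 piRNAs were lower in csulRM50 and sense Rt1a and Rt1b piRNAs were higher, as a share of each library. Rt1a had 12998.5 CPM in Aub csulRM50, against 22766 CPM in w1118. Rt1b had 38251 CPM in csulRM50, against 48456 CPM in w1118, and Rt1c had 349 CPM in csulRM50, against 858 CPM in w1118. The log2 fold changes were −0.81 for Rt1a, −0.34 for Rt1b, and −1.29 for Rt1c against a median of −0.57 over all transposons, so that Rt1b was above the median and its sign was turned by TMM (0.06) and DESeq2 size factors (0.22). Antisense Rt1a was at 8848 CPM in csulRM50, against 19362 CPM in w1118, and antisense Rt1b was at 26054 CPM in csulRM50, against 42493 CPM in w1118. Sense Rt1a was at 4151 CPM in csulRM50, against 3404 CPM in w1118, and sense Rt1b was at 12198 CPM in csulRM50, against 5963 CPM in w1118. For Rt1c both orientations were lower in csulRM50, with log2 fold changes of −0.72 for sense and −1.61 for antisense. One member, Rt1c, passed 2-fold, against 39.8% of transposons (28.5% lower), and did not with TMM (−0.89), DESeq2 size factors (−0.74), or entries (−0.74).

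The sense share in Aub was accordingly higher in csulRM50 for all 3 members. It was 31.9% in csulRM50 against 15.0% in w1118 for Rt1a, 31.9% in csulRM50 against 12.3% in w1118 for Rt1b, and 42.8% in csulRM50 against 28.8% in w1118 for Rt1c. The differences of 17.0, 19.6, and 14.0 points all passed 10 points, as did 31.4% of 121 transposons in that direction, and the median difference over these was 5.21 points. Of the 35 other non-LTR elements 16 passed 10 points as higher, with a median of 8.61 points. Rt1b ranked 11th from the highest of the 121. In the csulRM50 Aub library, antisense Rt1b reads had 7.89 read copies per entry and sense reads 5.20, whereas in w1118 antisense reads had 9.47 and sense reads 3.38. With entries the differences in sense share were 11.9 points for Rt1a, 13.3 points for Rt1b, and 8.49 points for Rt1c.

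In Ago3, Rt1a had 15764 CPM in csulRM50, against 33207 CPM in w1118, and Rt1c had 222 CPM in csulRM50, against 559 CPM in w1118. Rt1b had 52926 CPM in csulRM50, against 57614 CPM in w1118. The log2 fold changes were −1.07 for Rt1a, −1.33 for Rt1c, and −0.12 for Rt1b against a median of −0.60 over all transposons, so that Rt1a and Rt1c passed 2-fold, as did 40.7% of transposons (31.7% lower), and Rt1b lay above the median and turned to 0.37 with TMM and 0.38 with DESeq2 size factors. Neither call was kept with TMM (−0.58 for Rt1a and −0.84 for Rt1c), DESeq2 size factors (−0.57 and −0.83), or entries (−0.46 and −0.79). Sense shares were 55.1% in csulRM50 against 58.5% in w1118 for Rt1a, 60.6% in csulRM50 against 49.0% in w1118 for Rt1b, and 44.0% in csulRM50 against 42.6% in w1118 for Rt1c. The difference of 11.5 points for Rt1b passed 10 points, as did 30.6% of transposons in either direction and 13.2% as higher, and it was 4.24 points with entries. Those of −3.40 points for Rt1a and 1.40 points for Rt1c did not pass. No difference between csulRM50 and w1118 was tested, since each had 1 library per protein.

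Among 35 other non-LTR elements, the median log2 fold change in aubRK was 0.08 for Aub, 0.22 for Ago3 against aubWT, −0.53 for Ago3 against y w, and −0.09 for Piwi. Rt1a and Rt1b were below this median in each of the 4. R1A1-element, a relative of the same R1 group that inserts into ribosomal RNA genes, was also lower in aubRK in each of them, at −0.59 for Aub, −0.49 for Ago3 against aubWT, −0.53 for Ago3 against y w, and −0.72 for Piwi. In csulRM50 its log2 fold changes were 0.64 for Aub and 0.57 for Ago3, where those of the Rt1 elements were below 0 by library totals. R1-2, the other relative counted, differed by −0.07 for Aub, −0.86 and −0.09 for Ago3 against aubWT and y w, and −0.40 for Piwi. Both Ago3 comparisons use the same aubRK library, and all values are relative to the total on transposons, so that a lower share of 1 element means a higher share of others.

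The transposons whose abundance followed a member most closely over the 12 libraries were found by Pearson's correlation of log2(CPM + 1), as a description, since all values of a library share its depth and protein. For Rt1a these were gypsy12 (r = 0.86), TAHRE (0.81), and BS (0.79), and for Rt1b Circe (0.90), X-element (0.88), and aurora-element (0.82). For Rt1c they were Helena (0.92), Fw3 (0.87), and G3 (0.85), all non-LTR elements. Rt1a and Rt1b correlated with each other at 0.60, where Rt1b was 7th in the order for Rt1a and Rt1a 14th in the order for Rt1b, and Rt1c correlated with them at 0.28 and −0.34. In sense share the nearest transposons to Rt1a after Rt1b were BS, at a mean absolute difference of 4.36 points, and G-element, at 5.38 points. The nearest to Rt1b after Rt1a were BS, at 4.29 points, and baggins, at 5.38 points. For Rt1c the nearest were looper1, G5, and transib1, at 6.83, 7.52, and 7.62 points.

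The number of read copies per entry also differed between the members. In the libraries of the second protocol Rt1c had 1.77 to 2.67 read copies per entry, against 6.38 to 11.3 for Rt1a and 6.77 to 9.88 for Rt1b. In the first Piwi aubRK library it had 2.19, against 5.39 for Rt1a and 4.41 for Rt1b. In Aub of aubRK and aubWT the 3 members were closer, at 24.5 and 34.5 for Rt1c, 26.5 and 40.5 for Rt1a, and 27.0 and 38.3 for Rt1b. None of these libraries had a barcode, so that repeated molecules and PCR copies cannot be told apart.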

How the data were processed

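The 12 libraries hold ovarian small RNAs purified with Aub, Ago3, or Piwi and were grouped by protein and genotype as the sample labels give them. The authors trimmed adaptors with cutadapt 2.3, aligned reads end to end with STAR 2.4.2a to FlyBase consensus transposons, kept the alignments with the best score, and deposited raw counts per transposon and orientation without normalization. Their alignments to dm3 were not used here. Each deposited file holds 2 counts, read copies (used here) and entries, as judged from column names and values. In the 9 libraries without barcodes, identical reads count once in entries. In the 3 with barcodes entries equal read copies, so that entries are not a like count in both sets of libraries. Read copies are not a like count either, since PCR duplicates were removed in the barcoded libraries only. A read can be counted on several consensus sequences.

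CPM were computed from the library total on 126 transposons, and log2(CPM + 1) was compared over the 123 with a mean of at least 100 counts. Sense shares needed 50 read copies in each library compared, with Wilson 95% intervals. Means of both Piwi aubRK libraries were used. Calls were over 2-fold or over 10 points. Depth was 1338017 to 47217032 read copies per library. Piwi was tested with edgeR 4.0.16 (glmQLFit, library totals as sizes, R 4.3.3), and the Ago3 minus Aub sense share with an exact sign-flip permutation test (scipy 1.17.1). The computations were tested on simulated data. Alternatives were TMM, DESeq2 1.42.0, a pseudocount of 10, no filter, entries, leaving roo out of the total, each orientation alone, and leaving out libraries or genotypes.

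Named transposons are the 3 members, for each member the 3 most alike in abundance and in sense share, and the R1 relatives R1A1-element and R1-2. The members, the list of non-LTR elements, and the tests were chosen with earlier results of these data known, and the sets of libraries compared for overlap after the values were seen. Insertions are from the Ensembl BDGP6 annotation.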

Additional observations from a re-analysis of the deposited data

Results flagged for a closer look

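Under the same contrast, 6 pairs of differences had opposite signs in 2 proteins in every library compared, and none of these contrasts between proteins was tested, since at least 1 group in each had a single library. In aubRK against aubWT, the sense share of Rt1a differed by −26.1 points in Ago3 and by 4.15 points in Aub, and that of Rt1b by −22.6 points in Ago3 and by 3.25 points in Aub. The 0.12 points of Rt1b in Piwi were not counted, since the share in aubWT lay between those of the aubRK libraries. The sense share of Rt1a also differed by 4.15 points in Aub and by −3.82 points in Piwi. The log2 fold change of Rt1c in the same contrast was 1.28 in Ago3, −0.29 in Aub, and −0.15 in Piwi, and the Ago3 value was −0.61 against y w, which shares its adaptor type with aubRK. The Piwi value of Rt1c became 0.14 with TMM, 0.53 with entries, and 0.03 with sense reads alone. In csulRM50 against w1118, the sense share of Rt1a differed by 16.98 points in Aub and by −3.40 points in Ago3, where it became 2.37 points with entries.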

How the results depend on the processing

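Over all alternatives, 137 of 150 log2 fold changes of the members and 21 of 24 differences in sense share kept their sign. The log2 fold changes include those without the filter, which cannot change a member's value. They also include those with the pseudocount of 10 CPM, which moved the values little. The tally is therefore not a measure of stability. The signs of Rt1a and Rt1b in aubRK were kept in all abundance alternatives but antisense Rt1a in Ago3 against aubWT (0.20). The causes of the changes below were not tested. With entries, comparisons of Ago3 and Piwi with aubWT and the Ago3 minus Aub means mix libraries with and without barcodes. Neither their entries nor their read copies are like counts, so these alternatives cannot decide whether a result holds. The number of members over 2-fold in Ago3 aubRK against aubWT, 2, became 1 with TMM, with entries, and with antisense reads alone, and with DESeq2 size factors the 2 were Rt1a and Rt1b in place of Rt1b and Rt1c. Against y w, 1 became 0 with TMM, DESeq2 size factors, entries, and antisense reads, and 2 with sense reads. For Piwi, 0 became 1 with DESeq2 size factors, and without each aubRK library in turn it was 0 to 1 (1 without replicate 2), as was the number over 10 points in sense share (1 without replicate 1, Rt1c at 10.1 points). For Aub of csulRM50, 1 became 0 with TMM, DESeq2 size factors, and entries, and 2 with antisense reads, and the number over 10 points, 3, became 2 with entries. For Ago3 of csulRM50, 2 became 0 with TMM, DESeq2 size factors, and entries, and 1 with antisense reads, and the number over 10 points, 1, became 0 with entries. In edgeR's test for Piwi, 2 members called became 0 with entries, where Rt1c's fitted value was 0.64, against −0.14 with read copies. edgeR with TMM called 40 transposons and DESeq2 41, against 38. The mean Ago3 minus Aub sense share of Rt1c, −2.79 points, became 1.14 without aubRK and 0.0935 without aubWT, and with entries the means of Rt1a and Rt1b were 13.3 and 12.9 points. Scaling moved the split of all transposons over 2-fold, so that with DESeq2 size factors 28 were higher and 30 lower in Ago3 aubRK against aubWT (56 and 3 by library total), 26 and 13 against y w (13 and 22), 7 and 10 in Aub (15 and 7), 23 and 18 in Aub of csulRM50 (14 and 35), and 19 and 19 in Ago3 of csulRM50 (11 and 39), and with TMM 18 and 1 in Piwi (10 and 4). With TMM, 38 were higher and 13 lower in Ago3 aubRK against aubWT, and 25 and 13 against y w. TMM gave 19 and 23 in Aub and 19 and 19 in Ago3 of csulRM50. Entries gave 68 and 2, 6 and 16, 5 and 19, and 5 and 18 for these comparisons in turn. Antisense reads alone gave 65 and 4, 19 and 16, 11 and 43, and 12 and 40. Against y w, sense reads alone gave 7 and 63. In Piwi, DESeq2 size factors gave 8 and 5, and leaving out replicate 2 gave 13 and 4. Between genotypes no paired analysis was possible, since the labels match no libraries and each group but Piwi aubRK had a single library. The Ago3 and Aub sense shares were paired by genotype. Depth limits Rt1c most, with 1256 read copies in its shallowest library.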
